A study of Mus musculus with 23 samples.

Results

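Lbp, the gene of lipopolysaccharide-binding protein, and 9 further genes of endotoxin sensing were followed in mouse liver by RNA sequencing. The 10 genes were Lbp, Cd14, Tlr4, Ly96, Cd180, Ly86, Myd88, Tirap, Ticam1 and Irak1. They were found by gene identity among the 54838 genes of the count table, and all 10 are reported. The samples were livers of C57BL/6J mice, an inbred laboratory strain, injected with vehicle or with 1 of 4 secreted proteins at 1 µg per g of body weight, 3 times at intervals of 1 day. Batch 1 held LBP protein (3 libraries, replicates 2, 3 and 4) and its own vehicle (4 libraries). Batch 2 held the ependymin-related protein EPDR1, the activin-binding protein FSTL3, the complement lectin FCN2 (a ficolin) and its own vehicle, with 4 libraries each. All 6 groups were otherwise labelled alike, with no genetic change. The labels name no treatment with endotoxin itself. Whether every library stands for its own mouse is not stated, and the p-values therefore refer to the spread between libraries, part of which may be technical.

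Endotoxin is the lipopolysaccharide of the outer membrane of gram-negative bacteria. LBP, an acute-phase protein made mainly by hepatocytes, takes single molecules of it from aggregates and passes them to CD14, which hands them to the receptor TLR4 and its partner MD-2 (the product of Ly96). CD180 and MD-1 (the product of Ly86) form a related pair that can modify TLR4 responses, chiefly in B cells and myeloid cells. Inside the cell, TIRAP brings MYD88 to the receptor, MYD88 assembles a complex with kinases of the IRAK family, and TICAM1 (TRIF) serves the second, endosomal arm. In the liver, Kupffer cells, sinusoidal endothelial cells and hepatocytes all meet endotoxin arriving by the portal vein.

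On GRCm38, the build of the count table, Lbp lay at chr2:158306493-158332852, Tlr4 at chr4:66827584-66930284, Ly96 at chr1:16688051-16709611, Cd180 at chr13:102693558-102739629 and Ly86 at chr13:37345208-37419036. Myd88 lay at chr9:119335934-119341411, Tirap at chr9:35184551-35200291, Ticam1 at chr17:56269319-56276786 and Irak1 at chrX:74013914-74023918. The values are reads over the exons of each gene. Exons of 4 of the genes shared bases with another gene: 11.3% of the exon length of Myd88 (with Acaa1a), 9.84% of Tirap (Srpr and Gm39318), 4.04% of Cd180 (Mast4) and 2.99% of Irak1 (Mir5132 and Mir718). Counting was not recorded to use strand, so reads from shared bases cannot be assigned to either gene with certainty.

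RefSeq promoters (GRCm38.p6) were given for 6 of the 10 genes: Cd180, Ly86, Myd88, Tirap, Ticam1 and Irak1. The sequences of 4 are shown because Ly86, Myd88 and, without LBP replicate 2, Irak1 were lower after FSTL3, while Ticam1 was not called. Tirap, lower in the same fit as Irak1, is left out because its RefSeq window begins inside an exon of the gene. Each is the stretch of up to 250 bases before the annotated start, ending where an exon of the same gene begins, written 5′ to 3′ on the strand of the gene, with motif matches in capitals. The RefSeq start of Myd88 lies inside the gene as counted, downstream of its 5′ end, so its stretch is not the sequence before the gene coordinates given above.
Ly86, chr13:37345095-37345207, plus strand: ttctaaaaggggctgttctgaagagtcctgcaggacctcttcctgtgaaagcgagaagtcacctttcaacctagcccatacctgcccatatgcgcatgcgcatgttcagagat
Myd88, chr9:119340042-119340268, minus strand: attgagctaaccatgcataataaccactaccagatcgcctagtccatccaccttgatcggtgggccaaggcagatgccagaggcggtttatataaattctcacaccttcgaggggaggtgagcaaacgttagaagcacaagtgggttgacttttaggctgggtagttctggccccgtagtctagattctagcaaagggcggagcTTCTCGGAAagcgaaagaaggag
Irak1, chrX:74023919-74024168, minus strand: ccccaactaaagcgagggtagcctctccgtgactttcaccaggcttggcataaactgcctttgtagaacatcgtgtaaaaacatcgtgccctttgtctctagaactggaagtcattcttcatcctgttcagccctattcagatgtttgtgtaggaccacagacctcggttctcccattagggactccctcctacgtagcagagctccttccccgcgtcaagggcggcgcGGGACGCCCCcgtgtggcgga
Ticam1, chr17:56276787-56277017, minus strand: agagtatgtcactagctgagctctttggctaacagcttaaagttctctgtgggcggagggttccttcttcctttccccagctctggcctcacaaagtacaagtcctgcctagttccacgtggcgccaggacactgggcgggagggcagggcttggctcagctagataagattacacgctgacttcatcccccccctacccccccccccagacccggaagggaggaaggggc
The motifs searched on both strands in the full 250 bases were TTCNNNGAA (STAT), TTGCNNAA (C/EBP), TGANTCA (AP-1) and the kB motif. In these 6 genes there were only 2 matches: the capitals in Myd88 mark a STAT motif at bases 205 to 213, and those in Irak1 a kB motif at bases 230 to 239. Of all 32851 promoter windows of this length, 7.02% held the STAT motif, 7.25% the kB motif, 9.56% the C/EBP motif and 6.75% the AP-1 motif. A match describes the letters only.

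Total gene counts ran from 773499 to 21892416 per library, and from 9298871 to 10930800 in the FSTL3 libraries. Albumin made up between 5.26% and 8.36% of counts in 22 libraries, as a major product of hepatocytes, but 0.211% in LBP replicate 2. That library correlated with its own group at a median r of 0.660, against 0.948 to 0.989 for the libraries of the other groups. LBP replicates 3 and 4 had 0.805, a median that includes their correlation with replicate 2. The tests of the 10 genes are therefore given with and without LBP replicate 2. Genes annotated as small nuclear, nucleolar, ribozyme or miscellaneous RNA took 0.667% to 0.753% of counts in the FSTL3 libraries, 0.0817% in LBP replicate 2 and at most 0.00957% elsewhere. Levels are given as CPM, read counts relative to the library size after TMM scaling (a correction for library composition), and differences as log2 fold change ± SE. A gene was called when edgeR's quasi-likelihood test gave an adjusted p under 0.05 over all genes tested (11969 with all libraries, 12244 without LBP replicate 2).

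The genes spanned a wide range of levels. Per kb of exon length in the vehicle of batch 2, Lbp was highest at 25.9 ± 6.27 CPM per kb (SD, n = 4), followed by Irak1 at 16.2 ± 1.45, and their ranges did not overlap. Tirap (7.53 ± 1.81 CPM per kb), Myd88 (7.32 ± 2.36) and Ly96 (4.79 ± 1.15) came next, with overlapping ranges from neighbour to neighbour. Ticam1 (2.86 ± 0.413), Ly86 (1.80 ± 0.889) and Cd14 (1.63 ± 0.943) overlapped in the same way. Cd180 (0.306 ± 0.112) and Tlr4 (0.235 ± 0.108) were lowest and overlapped each other. In the vehicle of batch 1 the same genes held the top 2 and the bottom 2 places, while Myd88 changed places with Tirap, and Ticam1 with Ly96. The ranges of Myd88 and Tirap overlapped in both groups, and those of Ticam1 and Ly96 in batch 1 but not in batch 2. The plot of levels per exon length shows this order.

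**Figure D1:**
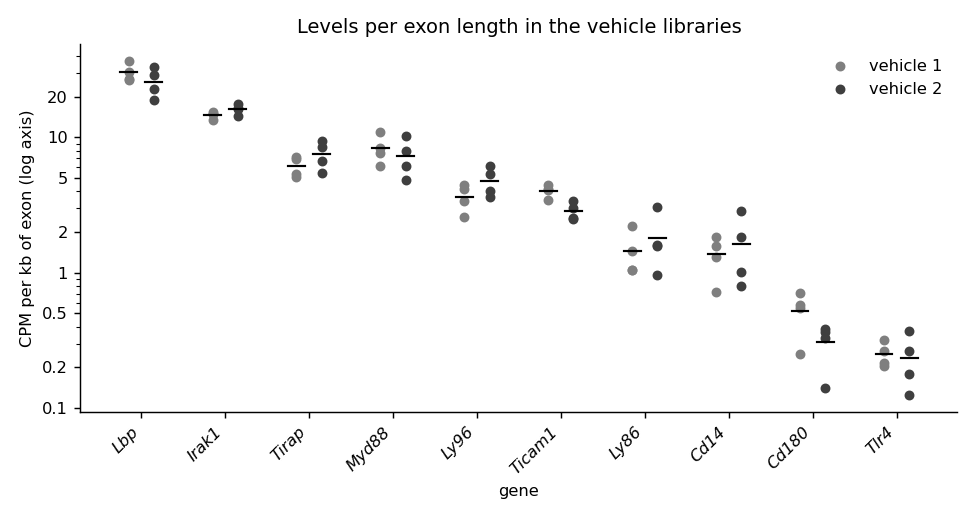
CPM per kb of exon (log axis) for the 10 genes in the 4 vehicle libraries of batch 1 (light grey) and the 4 of batch 2 (dark grey). Points are libraries and black lines are group means. Lbp and Irak1 lie above the other genes, and Cd180 and Tlr4 below 1 CPM per kb in all of these libraries.

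The receptor genes rested on few reads. Over all 23 libraries Cd180 had 193 counts, Cd14 had 237, Tlr4 386, Ly86 588 and Ly96 632, against 13161 for Lbp and 8854 for Irak1. All 10 genes passed the filter on low counts, which asked for 2.69 CPM of total counts in at least 3 libraries, but 2 did so through a single group. Tlr4 reached that level in all 4 FSTL3 libraries and in 1 other, of FCN2. Cd180 reached it in 3 libraries, all of the vehicle of batch 1. A difference between that group and the others was therefore built into their being tested, and their calls are given as descriptions. Tlr4 had no read in EPDR1 replicate 2 and in LBP replicate 2, and Cd180 none in LBP replicate 2. A count of 0 still allows up to 0.961 CPM in EPDR1 replicate 2 and 3.40 CPM in LBP replicate 2, counting error only.

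After FSTL3, genes at both ends of the pathway differed from the vehicle of batch 2. Lbp, Cd14, Ly86 and Myd88 fell and Tlr4 rose, so that 5 of the 10 genes were called (1 higher, 4 lower). The 1 higher, Tlr4, passed the filter on low counts through its FSTL3 libraries, so its place in this count is a description. Of all genes tested, 39.2% were called in this comparison, 23.2% higher and 16% lower. Without LBP replicate 2, Tirap and Irak1 were called lower as well, which made 7 of 10 (1 higher, 6 lower) against 56.8% of all genes (31.3% higher, 25.4% lower). The median log2 fold change over the 10 genes was −0.80, beside 0.06 over all genes tested, in either fit. In both fits the share called among these 10 genes was not far from that among all genes. The FSTL3 libraries also stood apart in small RNA share, as given above, and the part of that in these differences was not tested. Removing the trend on exon length left 3 of the 10 genes called, with Cd14 and Myd88 no longer so.

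The endotoxin carrier came first. Lbp stood at 71.4, 57.3, 67.7 and 80.2 CPM in FSTL3 replicates 1 to 4 and at 140, 110, 159 and 91.3 CPM in the vehicle of batch 2. Every FSTL3 library was below every vehicle library. The difference was −0.85 ± 0.33 on the log2 scale, 1.81-fold lower (adjusted p = 0.0414, and 0.0106 without LBP replicate 2). In the fit with all libraries the call was lost when any of the 8 libraries compared other than vehicle replicate 4 was left out (adjusted p 0.0546 to 0.120). Without LBP replicate 2 it was kept under all 22 further omissions. Against the vehicle of batch 1 Lbp was lower by a similar amount, −1.07 ± 0.33 (adjusted p = 0.0152).

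Cd14, the co-receptor that takes endotoxin from LBP and a gene of chromosome 18, stood at 0.459, 0.695, 0.904 and 1.67 CPM after FSTL3 and at 1.25, 1.59, 2.91 and 4.51 CPM in the vehicle of batch 2. The highest FSTL3 library lay above the lowest vehicle libraries, and the values rest on 5 to 35 counts. Cd14 fell by 1.25 ± 0.49 (adjusted p = 0.0459, and 0.0290 without LBP replicate 2). The call was lost with the trend on exon length removed (−0.69, adjusted p = 0.321), against the vehicle of batch 1 (−1.27, adjusted p = 0.0633) and on leaving out any of FSTL3 replicates 1, 2 and 3 or vehicle replicates 3 and 4 (adjusted p 0.0771 to 0.184, the last of these at −0.88). It was also lost, at adjusted p between 0.0503 and 0.0529, on leaving out 1 of 8 libraries of groups not compared here (EPDR1 replicates 3 and 4, FCN2 replicates 3 and 4, and any vehicle library of batch 1).

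Tlr4, the signalling receptor, was the one gene of the set that rose. The FSTL3 libraries held 5.42, 5.30, 5.60 and 6.09 CPM (59 to 73 counts each), and the vehicle of batch 2 held 0.996, 1.46, 2.08 and 0.694 CPM (2 to 32 counts). All 4 FSTL3 libraries were above all 19 other libraries, the highest of which was FCN2 replicate 2 at 3.20 CPM. The log2 fold change was 2.06 ± 0.43, 4.18-fold (adjusted p = 0.000536, and 3.73e-05 without LBP replicate 2). Without a filter on low counts it was 2.06 with an adjusted p of 0.000141. It was called in each of the 23 omissions of 1 library, between 1.94 and 2.2. Tlr4 passed the filter through its FSTL3 libraries, so the calls made with the filter are a description.

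Ly96 encodes MD-2, which holds the endotoxin pocket beside TLR4. It ranged from 2.87 to 4.97 CPM after FSTL3 and from 3.74 to 6.25 CPM in the vehicle, which overlapped, with a log2 fold change of −0.39 ± 0.28 (adjusted p = 0.292). Its 95% confidence interval ran from −0.95 to 0.17. With the trend on exon length removed the difference was 0.36 (adjusted p = 0.387), and against the vehicle of batch 1 it was 0.05.

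The related pair split in the same comparison. Ly86 stood at 2.85, 2.26, 2.53 and 2.08 CPM after FSTL3 and at 5.73, 3.50, 5.81 and 11.1 CPM in the vehicle, with no overlap. It fell by 1.33 ± 0.33, 2.52-fold (adjusted p = 0.00269, and 0.00101 without LBP replicate 2), and was called in all 23 omissions of 1 library. Cd180, its partner, stood at 1.75, 1.56, 1.45 and 2.08 CPM after FSTL3 and at 1.49, 0.637, 1.66 and 1.74 CPM in the vehicle. The ranges overlapped and the difference of 0.59 ± 0.35 was not called (adjusted p = 0.188). Against the vehicle of batch 1 its sign was the opposite, −0.57 ± 0.32.

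**Figure D2:**
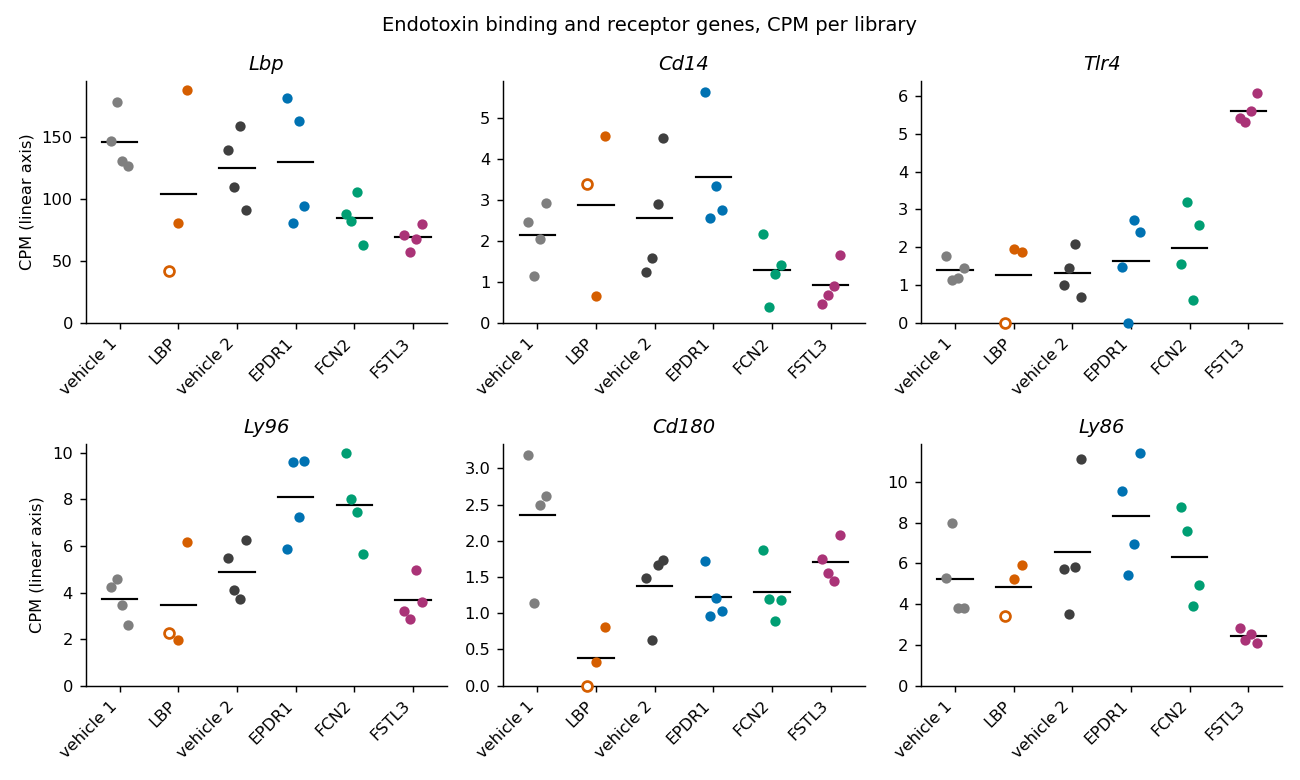
CPM per library (linear axes from 0) for Lbp, Cd14, Tlr4, Ly96, Cd180 and Ly86 in the 6 groups, where vehicle 1 and vehicle 2 are the vehicles of batch 1 and batch 2. Points are libraries, black lines are group means, and the open circle is LBP replicate 2. Tlr4 lies between 5.30 and 6.09 CPM in FSTL3 and at or below 3.20 CPM elsewhere, while Ly86 is lowest in FSTL3.

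Among the adaptors, Myd88 was called after FSTL3 with and without LBP replicate 2. It stood at 8.91, 9.64, 7.59 and 9.09 CPM, against 12.5, 20.4, 26.6 and 16 CPM in the vehicle of batch 2. All FSTL3 libraries were below all 19 others, whose lowest value was 12.5 CPM. Myd88 fell by 1.09 ± 0.27, 2.13-fold (adjusted p = 0.00273, and 8.46e-05 without LBP replicate 2), and was called in all 23 omissions of 1 library. With the trend on exon length removed it was −0.79 (adjusted p = 0.0509).

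Tirap, which links MYD88 to the receptor, held 18.6, 19.8, 19.9 and 21.8 CPM after FSTL3 and 33.1, 42.2, 46.5 and 26.7 CPM in the vehicle. Irak1, the kinase downstream of MYD88, held 47.3, 43.2, 44.3 and 48.0 CPM against 67.5, 84.1, 77.6 and 76.3 CPM. Neither gene's groups overlapped. With all libraries the spread estimate included LBP replicate 2, at 513 CPM for Tirap and 341 CPM for Irak1, and the differences were not called: −0.89 ± 0.56 for Tirap (adjusted p = 0.221) and −0.74 ± 0.32 for Irak1 (adjusted p = 0.0743). Without that library the same differences had SEs of 0.16 and 0.11 and were called, −0.90 for Tirap (adjusted p = 2.14e-05) and −0.75 for Irak1 (adjusted p = 1.34e-06). A fit of only the FSTL3 and vehicle libraries of batch 2 gave −0.97 (adjusted p = 3.62e-05) and −0.82 (adjusted p = 7.40e-06).

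Ticam1, the adaptor of the endosomal arm, held 9.19, 8.69, 8.59 and 6.09 CPM after FSTL3 and 8.96, 10.1, 7.47 and 7.63 CPM in the vehicle of batch 2. The ranges overlapped, and the difference was −0.10 ± 0.19 (95% confidence interval −0.48 to 0.28, adjusted p = 0.715). It depended on the control group: against the vehicle of batch 1, where Ticam1 was between 10.3 and 13.4 CPM, it was −0.59 ± 0.20 (adjusted p = 0.0240).

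**Figure D3:**
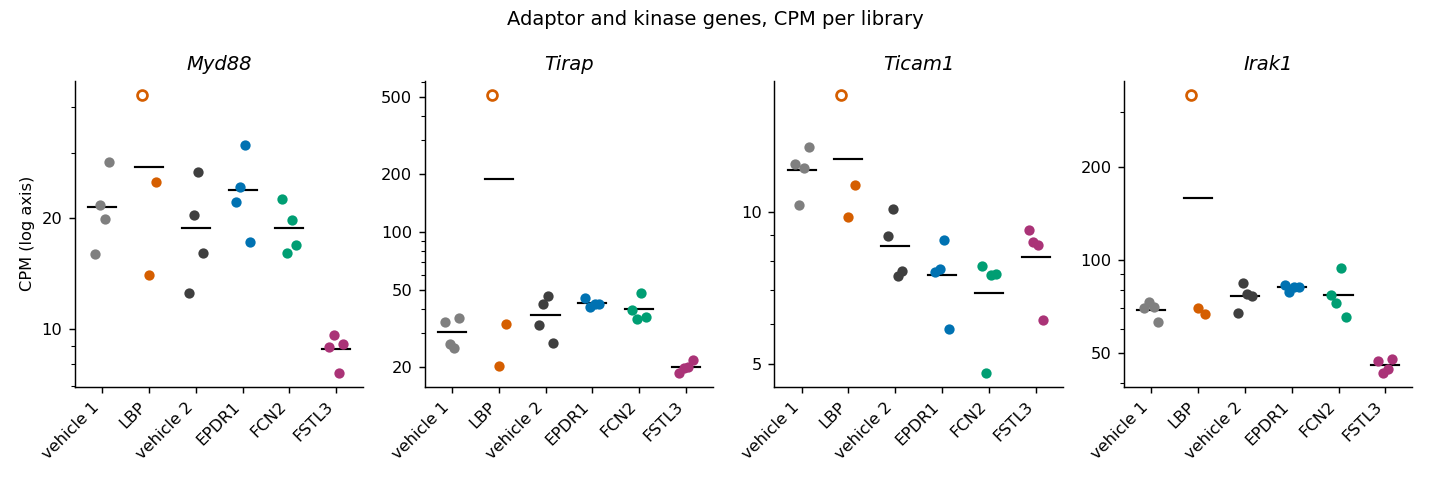
CPM per library (log axes) for Myd88, Tirap, Ticam1 and Irak1 in the 6 groups, where vehicle 1 and vehicle 2 are the vehicles of batch 1 and batch 2. Points are libraries, black lines are group means, and the open circle is LBP replicate 2, which is the highest library for all 4 genes, at 513 CPM for Tirap and 341 CPM for Irak1. Myd88 and Irak1 are lowest in the FSTL3 libraries.

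Set against the other vehicle group, that of batch 1, FSTL3 gave calls for 5 of the 10 genes (31.9% of all genes), and for 8 without LBP replicate 2 (49.9%). The 5 were not the same genes as against the vehicle of batch 2: Cd14 was not called and Ticam1 was. Tlr4, which passed the filter through its FSTL3 libraries, was among those called in both fits. The 2 vehicle groups differed in 1 of the 10 genes, Cd180, which was lower in batch 2 by 1.16 ± 0.38 (adjusted p = 0.0475, with 12.2% of all genes called). Without LBP replicate 2 it was again Cd180 alone (−1.21 ± 0.39, adjusted p = 0.0210, with 30.3% of all genes called). Its ranges overlapped, at 1.14 to 3.18 CPM in batch 1 and 0.637 to 1.74 CPM in batch 2. The vehicle of batch 1 was the only group in which Cd180 reached the filter level, so these calls are a description. Batch cannot be told apart from anything else that differed between these 2 sets of vehicle animals.

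Marker genes of several cell types moved with FSTL3, and their part in these differences was not tested. In bulk liver, fewer cells of a type and less RNA per cell cannot be told apart. Kupffer cell markers summed to 187 to 204 CPM after FSTL3 and 212 to 532 CPM in the vehicle of batch 2, and 4 of the 11 tested fell (8 without LBP replicate 2), with none higher in either fit, beside 16% of all genes lower (25.4% without that library). They included Marco, a scavenger receptor (−4.94 ± 0.90), and Timd4 (−1.68 ± 0.39). None of the 12 Kupffer markers was at 0 in either group. Neutrophil markers summed to 1.17 to 1.3 CPM against 3.49 to 18.3 CPM, and all 3 tested fell. Cxcr2 was at 0 in the 4 FSTL3 libraries, Ngp was at 0 in the vehicle, and Mpo had 1 count in the whole series. Sinusoidal endothelial markers went the other way, 555 to 669 CPM against 235 to 296 CPM. Of these, 4 of 10 rose (5 without LBP replicate 2, none lower in either fit), beside 23.2% of all genes higher (31.3% without that library). They included the scavenger receptors Stab1 (2.00 ± 0.21) and Stab2 (2.23 ± 0.26). Monocyte markers summed to 1210 to 1474 CPM against 769 to 1248, of which Fn1, also a hepatocyte gene, was 1205 to 1469 CPM. Of the 3 monocyte markers tested Plac8 alone was called with all libraries, and it fell by 1.39 ± 0.22 (adjusted p = 3.84e-05), from 5.23 to 8.68 CPM in the vehicle to 2.17 to 3.16 CPM. Hepatocyte markers summed to 88867 to 103084 CPM against 103554 to 118286 CPM, and Apoa1 (−1.17 ± 0.35) and Fgb (−1.27 ± 0.46) fell. Without LBP replicate 2, Ttr, Serpina1a and Cyp2e1 were lower as well and Cps1 was higher (0.71 ± 0.18). Stellate cell markers overlapped, at 412 to 509 CPM against 317 to 459 CPM. Hgf (2.49 ± 0.29) and Reln (1.98 ± 0.26) rose and Ecm1 (−0.91 ± 0.31) fell.

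Injected LBP protein left the mouse Lbp gene without a called difference. Lbp stood at 41.9, 80.7 and 188 CPM in LBP replicates 2, 3 and 4 and at 147, 178, 131 and 127 CPM in the vehicle of batch 1. The 3 libraries spanned more than the whole range of the vehicle. The log2 fold change was −0.46 ± 0.36 (adjusted p = 0.489), and −0.09 ± 0.33 without replicate 2 (adjusted p = 0.953), with a 95% confidence interval from −0.74 to 0.55. Leaving out replicate 4 instead gave −1.22 (adjusted p = 0.0165), so that single libraries set this value.

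With all 3 LBP libraries, 3 of the 10 genes were called (7.70% of all genes). Tirap (2.58 ± 0.62, adjusted p = 0.0165) and Irak1 (1.17 ± 0.35, adjusted p = 0.0448) were higher and Cd180 (−2.27 ± 0.56, adjusted p = 0.0182) was lower. Both higher values came from replicate 2. Tirap stood at 513, 20.2 and 33.3 CPM against 25 to 35.6 CPM in the vehicle, and Irak1 at 341, 70.0 and 66.7 CPM against 63.0 to 73.0 CPM. Without replicate 2 none of the 10 genes was called (0.727% of all genes), with 1 at an unadjusted p under 0.05, and Tirap and Irak1 were at −0.17 ± 0.21 and −0.01 ± 0.14. With all libraries, the Irak1 call held in only 2 of the 23 omissions of 1 library, and that of Tirap was also lost without vehicle replicate 3 (2.49, adjusted p = 0.0599). DESeq2 on the same 22 libraries called 1.88% of all genes.

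Cd180 stood at 0, 0.325 and 0.807 CPM in the LBP libraries (0, 1 and 3 counts) and at 3.18, 1.14, 2.49 and 2.62 CPM in the vehicle of batch 1 (9, 1, 23 and 9 counts). This vehicle was the only group in which Cd180 reached the filter level, so its call is a description. The groups did not overlap, with or without replicate 2. Without it the difference was −2.09 ± 0.61 and missed the threshold (adjusted p = 0.0895). With all libraries the call was also lost without a filter on low counts (−2.31, adjusted p = 0.0611), with DESeq2 (adjusted p = 0.0515) and with limma-voom (adjusted p = 0.0989). Markers of B cells, which commonly express Cd180, summed to 5.65 to 11.4 CPM after LBP and 10.3 to 14.1 CPM in the vehicle, with 1 of the 7 abundant enough to test and none called, and their part in the Cd180 difference was not tested.

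With all 3 LBP libraries, the other genes of the set overlapped their vehicle. Cd14 stood at 3.40, 0.651 and 4.57 CPM against 1.14 to 2.92 CPM, and Ly96 at 2.27, 1.95 and 6.19 CPM against 2.62 to 4.57 CPM. Myd88 stood at 43.1, 14 and 25 CPM against 15.9 to 28.3 CPM. For all 3 genes the LBP libraries spread beyond the vehicle on both sides. Ly86 stood between 3.40 and 5.92 CPM against 3.79 to 7.99, Ticam1 between 9.76 and 17 CPM against 10.3 to 13.4, and Tlr4 between 0 and 1.95 CPM against 1.14 to 1.77. Without replicate 2, which had no Tlr4 read, both LBP libraries (1.95 and 1.88 CPM) were above the vehicle, a difference of 0.48 ± 0.62 that was not called (adjusted p = 0.802). Pancreatic acinar markers summed to between 22.1 and 2727 CPM in the LBP libraries and between 8.84 and 104 CPM in the vehicle of batch 1, and hepatocyte markers to 32143 CPM in replicate 2 against 108473 and 120602 CPM in the other 2. Their part in these values was not tested.

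EPDR1 changed none of the 10 genes by the test. No gene of the table was called against the vehicle of batch 2 (0% of 11969, and 0% of 12244 without LBP replicate 2). At an unadjusted p under 0.05 there were 493 genes, 4.12% of those tested, and DESeq2 and limma-voom called 0. Without LBP replicate 2 there were 1261 genes at an unadjusted p under 0.05 (10.3%), and DESeq2 called 28. Among the 10 genes only Ly96 had an unadjusted p under 0.05. It stood at 5.89, 9.61, 7.26 and 9.64 CPM against 5.48, 4.10, 3.74 and 6.25 CPM, a difference of 0.74 ± 0.29 with an adjusted p that rounds to 1.00 (0.373 without LBP replicate 2). Lbp stood at 182, 80.7, 163 and 94.4 CPM, overlapping its vehicle (0.06 ± 0.32, 95% confidence interval −0.58 to 0.70). Cd14 ranged from 2.56 to 5.64 CPM against 1.25 to 4.51 CPM in the vehicle (0.68 ± 0.48).

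After FCN2, again none of the 10 genes was called, with 0.810% of all genes called, and 18.9% without LBP replicate 2. Lbp stood at 87.9, 82.0, 106 and 63.3 CPM against 140, 110, 159 and 91.3 CPM, with 1 vehicle library below the highest FCN2 library. The difference of −0.56 ± 0.33 missed the threshold (adjusted p = 0.385, and 0.156 without LBP replicate 2). Ly96 stood at 9.99, 8.0, 7.48 and 5.65 CPM against 3.74 to 6.25 CPM. It differed by 0.70 ± 0.29 (adjusted p = 0.217, and 0.0663 without LBP replicate 2), and its value was close to that after EPDR1, which shares the same vehicle libraries. Cd14 ranged from 0.400 to 2.18 CPM against 1.25 to 4.51 CPM (−0.65 ± 0.54, adjusted p = 0.562). The remaining 7 genes had log2 fold changes between −0.31 (Ticam1) and 0.53 (Tlr4).

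**Figure D4:**
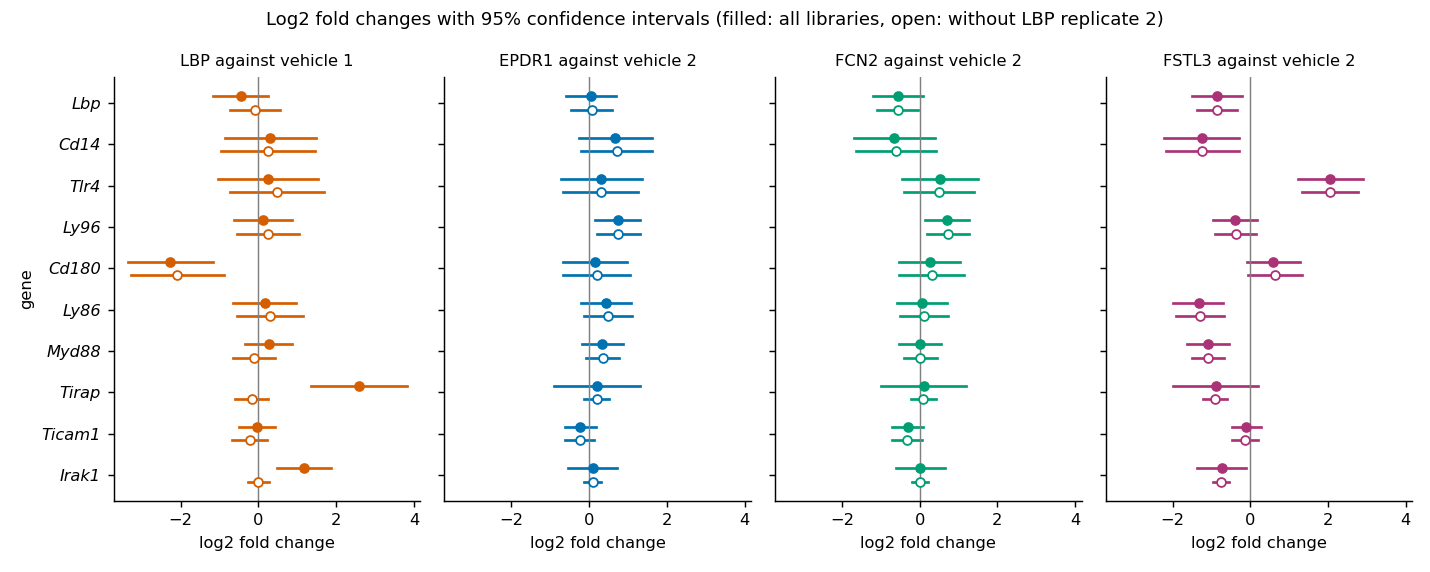
Log2 fold change of the 10 genes (rows) for each protein against the vehicle of its batch (panels), with 95% confidence intervals. Filled points come from all 23 libraries and open points from the fit without LBP replicate 2. The intervals of Lbp, Cd14, Ly86, Myd88 and Irak1 lie below 0 and that of Tlr4 above 0 after FSTL3, and the open points for Tirap and Irak1 after LBP lie near 0.

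The proteins of batch 2 were also compared with each other, which removes the vehicle from the comparison. Between FSTL3 and EPDR1, 7 of the 10 genes differed with all libraries (42.0% of all genes) and 8 without LBP replicate 2 (58.6%). Cd14 was lower after FSTL3 by 1.93 ± 0.48 (adjusted p = 0.00249), Ly86 by 1.77 ± 0.33 (adjusted p = 0.000162), Myd88 by 1.43 ± 0.27 (adjusted p = 0.000216) and Lbp by 0.91 ± 0.33 (adjusted p = 0.0283). The FSTL3 and EPDR1 libraries overlapped for none of these 4, which were taken from the genes called. The share of all genes without such overlap is not given here. Between FSTL3 and FCN2, 4 genes differed (44.3% of all genes) and 6 without LBP replicate 2 (60.8%). Each of these counts includes Tlr4, which passed the filter through its FSTL3 libraries. Tlr4 was higher after FSTL3 by 1.54 ± 0.42 (adjusted p = 0.00488) and Ly96 lower by 1.09 ± 0.28 (adjusted p = 0.00266), while Lbp did not differ by the test (−0.29 ± 0.32, 95% confidence interval −0.93 to 0.34). Ly96 was thus lower after FSTL3 than after either other protein of the batch, although its difference from the vehicle was not called. That difference from the vehicle changed sign, to 0.36, with the trend on exon length removed.

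EPDR1 and FCN2 differed in none of the 10 genes. Of all genes, 0% were called with all libraries (1097 at an unadjusted p under 0.05, and 71 called by DESeq2) and 4.73% without LBP replicate 2 (2740 at an unadjusted p under 0.05, and 918 called by DESeq2). Cd14 came nearest: its 4 EPDR1 libraries (2.56 to 5.64 CPM) were above its 4 FCN2 libraries (0.400 to 2.18 CPM), a difference of 1.32 ± 0.52 (adjusted p = 0.461, and 0.121 without LBP replicate 2).

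The response to LBP and that to FSTL3, each against its own vehicle, differed in 5 of the 10 genes (31.7% of all genes), and in the same number without LBP replicate 2 (37.8%). Both counts include Cd180, which passed the filter through the vehicle of batch 1. The difference for Tirap was 3.47 ± 0.84 with all libraries and 0.73 ± 0.26 without that library (adjusted p = 0.0295). Those for Irak1 were 1.91 ± 0.48 and 0.74 ± 0.17, for Myd88 1.35 ± 0.41 and 0.97 ± 0.34, for Ly86 1.49 ± 0.53 and 1.58 ± 0.53, and for Cd180 −2.86 ± 0.66 and −2.72 ± 0.71. For Lbp the responses did not differ by the test (0.39 ± 0.48, adjusted p = 0.566), nor for Tlr4 (−1.82 ± 0.78, adjusted p = 0.0765).

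The order of the 6 groups can be read gene by gene. For Lbp, Cd14 and Ly96 no 2 neighbours in the order of group means were apart beyond their spread: Lbp ran from the vehicle of batch 1 (146 ± 23.2 CPM) through EPDR1 (130 ± 49.9), the vehicle of batch 2 (125 ± 30.3), LBP (104 ± 75.8, n = 3) and FCN2 (84.8 ± 17.7) to FSTL3 (69.1 ± 9.50). Cd14 ran from EPDR1 (3.57 ± 1.42 CPM) down to FSTL3 (0.931 ± 0.523 CPM), and Ly96 from EPDR1 (8.10 ± 1.85 CPM) down to FSTL3 (3.66 ± 0.922 CPM) and LBP (3.47 ± 2.36 CPM). For Tlr4, FSTL3 (5.60 ± 0.346 CPM) stood above FCN2 (1.99 ± 1.15 CPM), and the 5 other groups followed one another with overlapping ranges. For Myd88, Ly86 and Irak1 the FSTL3 group was last and apart from its neighbour, with means of 8.81 ± 0.869, 2.43 ± 0.333 and 45.7 ± 2.33 CPM, with or without LBP replicate 2. For Cd180 the LBP group was last and apart, at 0.377 ± 0.406 CPM.

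Genes around the 10 were followed in 7 lists of the endotoxin pathway, whose counts after FSTL3 stand beside 39.2% of all genes called (23.2% higher, 16% lower), or 56.8% without LBP replicate 2 (31.3% higher, 25.4% lower). Of 14 target genes of endotoxin signalling tested, 7 fell after FSTL3 and none rose, with a median log2 fold change of −1.61 beside 0.06 over all genes. They included the neutrophil attractant Cxcl1 (−4.87 ± 0.71, adjusted p = 1.14e-05), at 3.48 to 4.68 CPM against 13.4 to 304 CPM, the acute-phase genes Saa1 (−6.64 ± 1.21), Saa2 (−7.28 ± 1.46) and Saa3 (−3.08 ± 0.70), the iron-binding Lcn2 (−5.41 ± 1.06) and the monocyte attractant Ccl2 (−3.22 ± 0.70). The vehicle libraries themselves spread widely for these genes, Saa1 from 464 to 4205 CPM, but stayed above the FSTL3 libraries, which held 9.73 to 19.3 CPM of Saa1. Ccl2 was the exception, at 0 to 0.459 CPM against 0 to 4.15 CPM. The same number of target genes was called lower without LBP replicate 2. As the lists were chosen with earlier results of these data known, the contrast with all genes is a description. List and marker genes are given without the trend on exon length removed, a step that took the calls of Cd14 and Myd88 after FSTL3.

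In the signalling lists the share of genes called was below that of all genes for adaptors, for the NF-kB arm and for the brakes. Of 14 adaptors and kinases tested, 3 fell after FSTL3 and none rose: Tab2 (−1.10 ± 0.14), Ecsit (−0.61 ± 0.16) and Ikbke (−0.66 ± 0.24). Of 13 genes of the NF-kB and IRF arm, the inhibitor gene Nfkbib fell (−1.82 ± 0.30) and Nfkb1 rose (0.39 ± 0.14). Of 9 brakes of the pathway, the deubiquitinase Cyld rose (0.82 ± 0.20), while the cytokine-signalling inhibitor Socs3 (−1.62 ± 0.43) and Tnip1 (−0.67 ± 0.26) fell. The list medians were −0.14, −0.18 and −0.06. Without LBP replicate 2 the counts were 1 higher and 5 lower, 3 higher and 4 lower, and 2 higher and 2 lower.

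The other sensors split. Of 10 other pattern recognition receptors tested, the flagellin receptor Tlr5 (1.61 ± 0.45) and the peptidoglycan sensor Nod1 (0.79 ± 0.29) rose after FSTL3 and Tlr1 (−1.48 ± 0.43), a partner of TLR2, fell. In the fit without LBP replicate 2, 4 of 11 were higher and 2 lower. The 4 included Tlr8 (2.41 ± 0.43), which was not called with all libraries. It held 1.56 to 3.25 CPM after FSTL3 and 0 to 0.694 CPM in the vehicle of batch 2. Its level was near the filter on low counts, so its call is a description. Among 11 genes of endotoxin transport and clearance, Lrp1 (1.29 ± 0.22), Apob (1.48 ± 0.47), Pltp (1.18 ± 0.43) and Abca1 (1.13 ± 0.42) rose, and haptoglobin (Hp, −1.91 ± 0.45) and Apoa1 (−1.17 ± 0.35) fell. These counts depended on the control group. Against the vehicle of batch 1, with all libraries, transport and clearance had 1 higher and 3 lower, with a median of −0.64 instead of 0.07. The other receptors then had 0 higher and 1 lower. Lrp1 held 977 to 1244 CPM after FSTL3, 343 to 545 CPM in the vehicle of batch 2 and 997 to 1173 CPM in that of batch 1. Of 8 genes of receptor trafficking, the ubiquitin ligase gene Rnf216 rose (1.19 ± 0.22). The chaperone gene Hsp90b1, needed to fold TLRs, fell (−1.06 ± 0.37), as did Cnpy4 (−1.05 ± 0.35). Omitting LBP replicate 2 gave 1 gene of trafficking higher and 4 lower, and transport and clearance had 4 higher and 2 lower. The plot of calls per list sets these counts side by side.

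**Figure D5:**
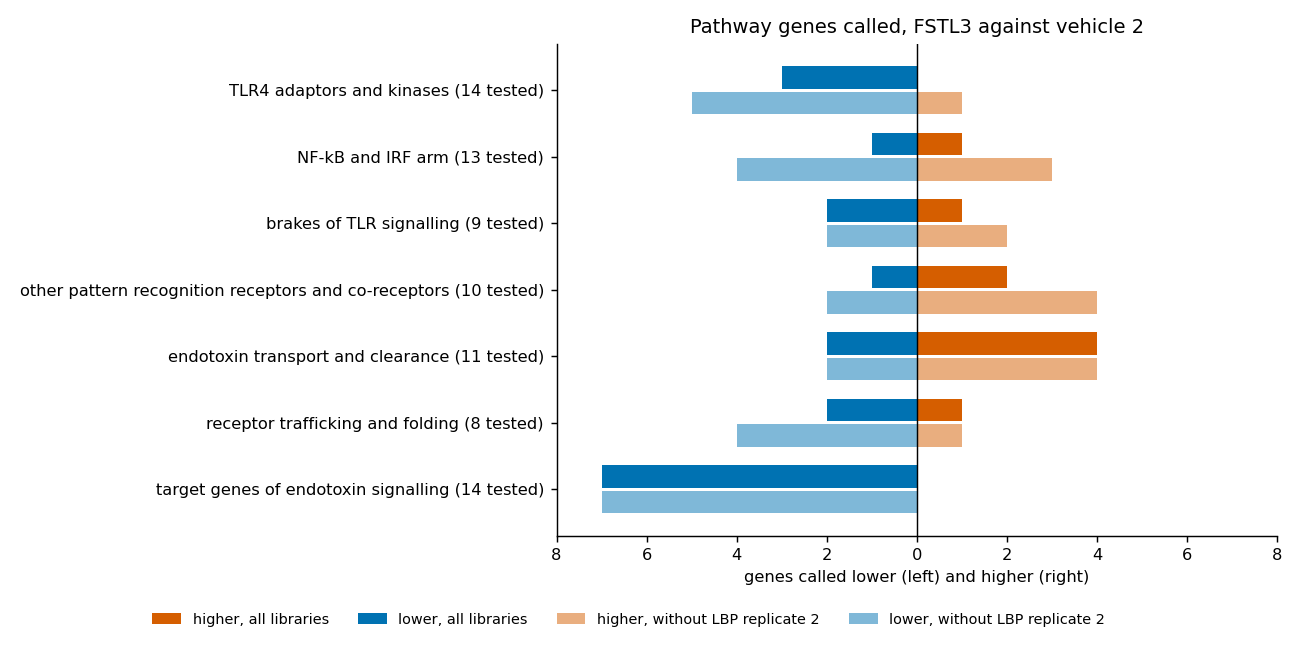
Number of genes called lower (left) and higher (right) after FSTL3 against the vehicle of batch 2 in the 7 pathway lists. The number tested in the fit of all libraries stands beside each name. Dark bars come from all libraries and light bars from the fit without LBP replicate 2. Of the target genes 7 are lower and none higher, and transport and clearance has 4 higher and 2 lower.

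After LBP, called list genes were few and most rested on replicate 2. With all libraries Nfkbia (2.04 ± 0.53), Hmgb1 (3.22 ± 0.72) and Hsp90b1 (1.93 ± 0.39) were higher, and in each the highest LBP library was far above the vehicle, 588 against 64.1 CPM for Nfkbia. The clearance receptor gene Lrp1 (−1.05 ± 0.24, adjusted p = 0.0133) and the transcription factor gene Cebpd (−1.59 ± 0.37, adjusted p = 0.0136) were lower. Without replicate 2, which left 2 libraries in the LBP group, only these last 2 genes were called. Lrp1 was at −0.95 ± 0.22 (adjusted p = 0.0315) and Cebpd at −1.59 ± 0.39 (adjusted p = 0.0454). Over all LBP libraries Lrp1 stood at 457 to 583 CPM, against 997 to 1173 CPM in the vehicle, and Cebpd at 4.57 to 5.67 against 9.42 to 25.1 CPM. Without replicate 2 the LBP libraries held 563 to 583 CPM of Lrp1 and 4.57 to 5.21 CPM of Cebpd.

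After FCN2 the endosomal receptor chaperone gene Unc93b1 was the one list gene called with all libraries (−1.0 ± 0.21, adjusted p = 0.0353), at 6.83 to 11.2 CPM against 17.4 to 24.3 CPM. Without LBP replicate 2, when 18.9% of all genes were called, 4 of the 11 genes of transport and clearance were lower and none higher, Lrp1 (−0.88 ± 0.17), Scarb1 (−0.56 ± 0.14), Alpl (−0.87 ± 0.24) and Hp (−0.87 ± 0.30). In the same fit adaptors and kinases had 2 higher and 2 lower of 15, receptor trafficking 2 higher and 2 lower of 8, the NF-kB arm 1 lower (Rela, −0.77 ± 0.18) and the brakes 1 lower (Sigirr, −0.62 ± 0.20). No target gene and no other pattern recognition receptor was called, and 3 of 11 Kupffer cell markers were lower, whose part was not tested. After EPDR1 no list gene was called in either fit, and the median log2 fold change of the target genes was 0.75.

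Across the 22 libraries other than LBP replicate 2, the pattern of Lbp was closest to that of Clu (clusterin, r = 0.90), Hp (haptoglobin, r = 0.87), Serpina3n (an acute-phase serine protease inhibitor, r = 0.84), St3gal1 (a sialyltransferase, r = 0.84) and Map7d1 (r = 0.83), of 8774 genes compared. These are Pearson correlations of log2 CPM over libraries that share batch and group, given as a description. With each group's mean removed they were 0.87, 0.79, 0.84, 0.63 and 0.81. Cd14 was closest to Ahsg (fetuin-A, a plasma protein made by hepatocytes, r = 0.80), Srrt (0.78), Cox5b (0.74), Ddx39b (0.74) and Fam187b (0.72). Within the set, Lbp correlated with Myd88 at 0.66, with Cd14 at 0.60 and with Tlr4 at −0.33, and with each group's mean removed these were 0.42, 0.36 and 0.25, so that the sign for Tlr4 turned. Those for the 5 genes closest to Cd14 were then 0.64, 0.62, 0.53, 0.47 and 0.56.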

How the data were processed

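Gene counts were deposited for 23 liver libraries. Per the file headers, the authors counted reads over exons with featureCounts 1.6.3, with no strand option recorded. Per the submitters' processing notes, STAR 2.6.0c and GRCm38 were used, and Ensembl release 95 was the annotation per the file headers. Gene symbols came from the Ensembl IDs. No column of the table was without a sample. R 4.3.3 and edgeR 4.0.16 were used for robust quasi-likelihood tests after filterByExpr and TMM scaling, with 1 mean per group over all libraries and Benjamini-Hochberg adjustment over all genes. The fit was repeated without LBP replicate 2 and tested on simulated data. SEs are derived from the fold change and its F statistic. DESeq2 1.42.0, limma-voom (limma 3.58.1), other filters and scalings, a replicate block, a correction for exon length and omission of each library were alternatives. All 10 genes are named. From each list of related genes those called are named, up to 6 per comparison by smallest p. The genes and lists were chosen with earlier results of these data known. Likeness used log2 CPM with a prior count of 2 for genes of at least 5 CPM. Counts per library set the precision of each level.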

Additional observations from a re-analysis of the deposited data

Results flagged for a closer look

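Of 50 sets of 4 libraries checked (10 genes in 5 groups), 1 held a library far from its group: Ticam1 in FCN2 replicate 2, at 4.80 CPM against 7.48 to 7.80 CPM in the other 3. Chance alone gives such a library in about 1 of 20 sets.

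Responses to 2 proteins differed, by the test of the difference itself, for the following genes (log2 differences). FSTL3 minus EPDR1 was −0.91 for Lbp, −1.93 for Cd14, 1.76 for Tlr4, −1.13 for Ly96, −1.77 for Ly86, −1.43 for Myd88 and −0.83 for Irak1. FSTL3 minus FCN2 was 1.54 for Tlr4, −1.09 for Ly96, −1.38 for Ly86 and −1.10 for Myd88. The response to LBP minus that to FSTL3, each against its own vehicle, was −2.86 for Cd180, 1.49 for Ly86, 1.35 for Myd88, 3.47 for Tirap and 1.91 for Irak1. The last 2 were 0.73 and 0.74 without LBP replicate 2. Tlr4 passed the filter through its FSTL3 libraries and Cd180 through the vehicle of batch 1, so their values here are a description.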

How the results depend on the processing

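Few reads limit Cd14, Tlr4 and Cd180, and the LBP group is limited by its 3 libraries. The causes of the changes below were not tested. Apart from omissions of 1 library, 467 fold changes of the 10 genes kept direction and call under the alternatives, 6 gained and 17 lost the call, and 20 changed sign; for omissions these numbers were 1674, 7, 47 and 60. Combinations of LBP replicate 2 left out with another setting were chosen after seeing the data.

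With limma-voom, Lbp after EPDR1 was −0.00 and Tlr4 −0.21, and after LBP Cd14 was −0.00 and Ly96 −0.02, with 0 of the 10 genes and 3 genes in all called. With the trend on exon length removed, Ly96 was 0.36 and Ticam1 0.12 after FSTL3 (3 of 10 called), and Ly96 was −0.03 and Ticam1 0.08 after LBP. With the vehicle of batch 1 as control, Ly96 was 0.05 and Cd180 −0.57 after FSTL3. With DESeq2 size factors Ticam1 after LBP was 0.04 and 64 genes were called after FCN2. The DESeq2 test called 763 genes after FCN2 and 1 of the 10 after LBP. With no filter Irak1 after FCN2 was −0.00, 9 genes were called after FCN2, 7190 after FSTL3 and 404 after LBP, with 0 of the 10. With only the libraries compared, Irak1 after FCN2 was −0.01 and Ticam1 after LBP 0.05, and the genes called were 2 after EPDR1, 1409 after FCN2, 7929 after FSTL3 and 0 after LBP, with 0 of the 10. With LBP replicate 2 left out, the exon length correction gave Ly96 0.36 and Ticam1 0.09 after FSTL3 and called 1 of the 10 after FCN2. The other vehicle then gave Ly96 0.05 and Cd180 −0.58. The response of Ticam1 to LBP minus that to FSTL3 was then −0.10.

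The labels do not say whether replicate numbers pair the samples. The correlation of same-numbered deviations had a median of 0.07 in batch 2 (−0.13 to 0.34, 24 pairs) and 0.05 in batch 1 (−0.02 to 0.08, 3 pairs). For different numbers the medians were −0.02 (−0.29 to 0.28, 72 pairs) and −0.04 (−0.13 to 0.16, 9 pairs). These overlapping ranges do not decide whether the samples were paired. With the replicate block, 51 genes were called after FCN2 and 11 after LBP, with 0 of the 10 after LBP and 6 of the 10 after FSTL3. With LBP replicate 2 left out as well, the block gave Cd14 −0.14 and Irak1 0.04 after LBP.

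Leaving out 1 library at a time gave the following ranges. After EPDR1, Lbp was −0.15 to 0.23, Tlr4 −0.04 to 0.70 and Cd180 −0.36 to 0.32, with 0 to 1 genes called. After FCN2, Cd180 was −0.25 to 0.43, Ly86 −0.24 to 0.42, Myd88 −0.14 to 0.20, Tirap −0.02 to 0.22 and Irak1 −0.09 to 0.08, with 0 to 2314 genes called. After FSTL3, Ticam1 was −0.19 to 0.02, with 3 to 7 of the 10 called. After LBP, Cd14 was −0.76 to 0.87, Ly96 −0.81 to 0.51, Ly86 −0.00 to 0.30, Myd88 −0.12 to 0.59, Tirap −0.17 to 3.11, Ticam1 −0.22 to 0.10 and Irak1 −0.01 to 1.51, with 0 to 4 of the 10 and 89 to 2145 genes called.

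With LBP replicate 2 already left out, Lbp after EPDR1 was −0.14 to 0.24, Tlr4 −0.05 to 0.69 and Cd180 −0.35 to 0.37. After FCN2, Cd180 was −0.24 to 0.48, Ly86 −0.23 to 0.47, Myd88 −0.13 to 0.18, Tirap −0.02 to 0.19 and Irak1 −0.10 to 0.08, with 0 to 1 of the 10 called. After FSTL3, Ticam1 was −0.19 to 0.00. After LBP, Lbp was −0.85 to 0.39, Cd14 −1.80 to 0.99, Ly96 −0.86 to 0.81, Myd88 −0.62 to 0.23, Tirap −0.60 to 0.14 and Irak1 −0.05 to 0.01.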
